A study of Mus musculus with 6 samples.

Results

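The genes examined here encode the machinery that places peptides on major histocompatibility complex (MHC) class I molecules: the heavy chains H2-K1 and H2-D1, their light chain B2m, the peptide transporter and its partner (Tap1, Tap2 and Tapbp), the inducible proteasome subunits Psmb8, Psmb9 and Psmb10, and the transactivator Nlrc5. They were chosen by gene symbol, 10 of the 48587 genes of the count table, and all 10 were expressed highly enough to be tested. 4T1 is a mammary carcinoma line of the mouse, and its total RNA was sequenced here in 6 libraries. The METTL7A1 group (3 libraries) was stably transfected with full-length, FLAG-tagged Mettl7a1 cDNA, which encodes a putative methyltransferase, under the CMV promoter of the pBICEP-CMV-2 vector. The mock group (3 libraries) was stably transfected with the empty vector, and transfectants were selected with G418. The study calls the replicates biological, but the sources used here do not say whether a group was 1 clone, a pool or several transfections, so that METTL7A1 and other differences between the transfected cells cannot be told apart, and p-values measure only the spread between these libraries.

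Class I molecules display peptides from proteins made inside the cell to cytotoxic T cells. The proteasome cuts proteins into peptides, and its inducible subunits can take the place of the constitutive ones and shift the cleavage towards peptides that class I molecules bind well. The TAP transporter carries peptides into the endoplasmic reticulum, where tapasin, calreticulin and Pdia3 (ERp57) help load them onto a heavy chain paired with B2m, and Erap1 trims them. NLRC5, the class I transactivator, acts at class I promoters through factors of the RFX, CREB/ATF and NF-Y families, and interferons raise most genes of the pathway. Tumour cells, mammary ones among them, often carry little class I.

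The promoters of the heavy chain and light chain genes are shown because their shared module is where NLRC5 and its partner factors are known to act. Sequences are from RefSeq (build GRCm38.p6), which held a 300-base window around the start of 8 of the 10 genes and did not list Tap2 and Nlrc5. Each line is the module on the strand of its gene, with capitals for TGACG, the core of a CREB/ATF site, and for ATTGG, the reverse complement of the CCAAT core of an NF-Y site, 20 bases apart.
H2-K1: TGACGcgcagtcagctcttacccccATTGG
H2-D1: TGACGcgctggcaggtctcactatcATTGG
B2m: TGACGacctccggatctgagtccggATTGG
The modules lie at chr17:34000359-34000388 (minus strand), chr17:35262993-35263022 (plus strand) and chr2:122147609-122147638 (plus strand). Each lies within its window, and they end 12, 72 and 49 bases before the RefSeq start of the respective gene. H2-K1 has a second RefSeq start, which is the start of the gene in the count table, and its module ends 26 bases before that one. The module of H2-D1 lies within an exon of a longer annotated H2-D1 transcript. H2-K1 and H2-D1 shared 23 of the 30 bases, 13 of them among the 20 between the capitals. The module of B2m shared 13 bases with that of H2-K1 and 12 with that of H2-D1, but only 3 and 2 of them lay between the capitals.

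Longer stretches upstream of H2-K1 and B2m, ending 11 bases before the start, show where other letters that were searched stand beside the module. Capitals mark the same cores, the letters GGGNNTTCC of an NF-kB site in H2-K1 and GAAA, any 2 bases and GAAA, the letters of an interferon-stimulated response element in B2m.
H2-K1: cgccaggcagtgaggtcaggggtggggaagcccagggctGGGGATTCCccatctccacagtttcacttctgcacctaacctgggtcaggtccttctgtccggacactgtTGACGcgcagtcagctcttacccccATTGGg
B2m: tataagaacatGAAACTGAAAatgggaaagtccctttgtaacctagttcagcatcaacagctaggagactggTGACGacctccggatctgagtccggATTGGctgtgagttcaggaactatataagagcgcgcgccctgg
They lie at chr17:34000358-34000497 (minus strand) and chr2:122147537-122147676 (plus strand). Both strands of all 32851 windows were searched. The spaced pair TGACG and ATTGG was present in 0.0944% of windows (31), among them 2 of H2-K1 and those of H2-D1 and B2m, and the spacing was chosen after these sequences were seen. The single cores were common, TGACG in 20.8% of windows and ATTGG in 37.4%, and each match of the pair is also a match of both cores. TGACG was found for H2-K1, H2-D1, B2m, Tap1 and Psmb9, and ATTGG for these 5 and Tapbp. The windows of Tap1 and Psmb9, on opposite strands, overlap, and for each core the match of both genes is the same stretch of bases. GGGNNTTCC was present in 5.82% of windows (of the 8 genes, H2-K1 and H2-D1) and the interferon-stimulated response element in 3.44% (B2m). TTCNNNGAA, the letters of a STAT site, was present in 8.30% (Psmb8). Matches were not confined to these genes. Of 11 other listed class I heavy chain genes with a window, H2-Q4, H2-Q6, H2-Q7 and H2-M2 held GGGNNTTCC. H2-T22 and H2-T23 held the interferon-stimulated response element, and H2-M3 held TTCNNNGAA and the spaced pair. A match of letters is a description and does not show that a factor was bound. Only these exact letters were sought, so an unmarked stretch or a gene without a match can still hold a variant of a site.

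Libraries held between 18386780 and 28459338 counts. The transfected gene was examined first: METTL7A1 replicates 1 to 3 held 6355, 11358 and 10398 counts of Mettl7a1, against 30, 30 and 29 in mock replicates 1 to 3, so every library followed its label. Of 5 epithelial markers all were expressed, with a summed level of 1472 to 1751 cpm (counts scaled by library size with TMM factors) in METTL7A1 libraries and 1422 to 1737 in mock libraries. Of 10 leukocyte markers Cd3e and Nkg7 were at 0 in every library and Ptprc had 3 to 8 counts, but Csf1r and Cd68, the only ones abundant enough to test, were higher with METTL7A1 by 1.68 ± 0.27 and 1.23 ± 0.14 on the log2 scale (SE, edgeR adjusted p = 0.000506 and 5.05e-05). The summed leukocyte marker level was 14.1 to 16.4 cpm in METTL7A1 and 5.96 to 6.96 cpm in mock libraries, and its part in the results was not tested. In bulk RNA, more cells of a kind and more RNA per cell cannot be told apart.

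Of the 10 class I pathway genes 9 rose with METTL7A1 and Psmb10 fell. Each passed an adjusted p under 0.05 (edgeR quasi-likelihood test, Benjamini-Hochberg adjustment over 13166 genes), as did 42.1% of all genes tested (21.1% higher and 21.0% lower). The largest rises were those of the transporter subunits Tap1 and Tap2, followed by Psmb8 and Nlrc5, and the values of the heavy chains, B2m and Tapbp were smaller. The median log2 fold change of the 10 genes was 0.77, against -0.03 over all genes tested. For each of the 10 the groups did not overlap, which held for 51.6% of all tested genes, and for 9 all METTL7A1 libraries were the higher ones, as for 25.9% of all tested genes. At the thresholds of the study, an adjusted p under 0.01 and a log2 fold change over 1.5 in either direction, Tap1 alone passed, against 2.48% of all genes tested.

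**Figure D1:**
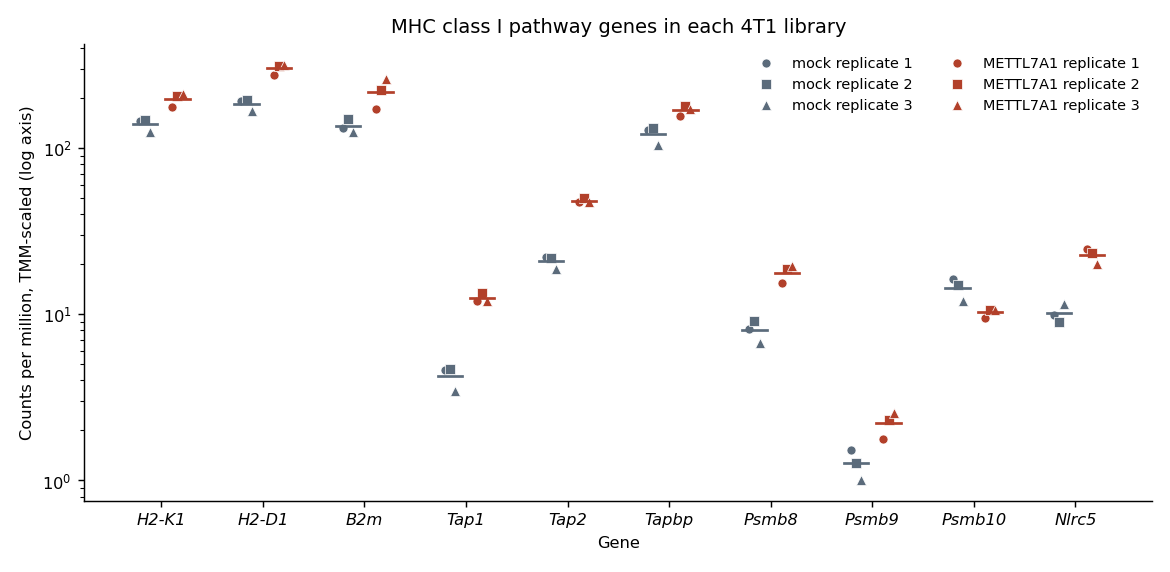
Abundance of the 10 class I pathway genes in each library, in TMM-scaled cpm on a log axis, with 1 symbol per replicate and a bar at the group mean. METTL7A1 libraries (red) lie above mock libraries (grey) for 9 genes and below them for Psmb10.

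The heavy chains form the peptide groove and are the most variable part of the complex. H2-K1 (chromosome 17, 33996017 to 34000333, build mm10) had 176.5, 206.5 and 211.2 cpm in METTL7A1 replicates 1 to 3 and 145.8, 146.7 and 125.1 cpm in mock replicates 1 to 3. METTL7A1 replicate 1 was the lowest of its group but still above every mock library. H2-K1 rose from 139 ± 12.2 to 198 ± 18.8 cpm (SD, n = 3 each), which is 0.51 ± 0.09 on the log2 scale (fold change ± its standard error, SE; edgeR adjusted p = 0.00113).

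H2-D1 (chromosome 17, 35262730 to 35267499), the more abundant heavy chain, had 273.4, 312.8 and 316.6 cpm in METTL7A1 replicates 1 to 3 and 191.2, 193.0 and 166.6 cpm in mock replicates 1 to 3. The groups were well apart, with METTL7A1 replicate 1 again the lowest of its group. Its change on the log2 scale was 0.71 ± 0.09 (SE, edgeR adjusted p = 9.31e-05). Within a library, counts per kilobase of H2-D1 over H2-K1 were 1.21, 1.18 and 1.17 in METTL7A1 replicates and 1.02, 1.03 and 1.04 in mock replicates. The ratio was thus higher in every METTL7A1 library, a difference of 0.21 on the log2 scale (exact permutation test, two-sided p = 0.1, the smallest that 3 against 3 libraries can give). 4T1 comes from a BALB/c mouse, which carries another class I haplotype (H-2d) than the reference genome (H-2b), and 22.8% of the 31-base stretches of H2-K1 and 26.7% of those of H2-D1 occur in other genes, so the division of reads between heavy chain genes is uncertain. H2-L, a further class I gene of that haplotype, was not analysed here. With the counts of H2-K1, H2-D1 and the 13 other H2 class I genes of the lists summed into 1 row, a choice made after seeing the data, the summed row rose by 0.65 ± 0.09 on the log2 scale (SE, edgeR adjusted p = 0.000227).

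B2m, the light chain that every classical class I molecule needs to reach the cell surface, lies outside the MHC (chromosome 2, 122147686 to 122153083) and shared no 31-base stretch with another gene. It had 170.6, 221.8 and 261.3 cpm in METTL7A1 replicates 1 to 3 and 131.0, 150.1 and 125.2 cpm in mock replicates 1 to 3. METTL7A1 libraries varied more among themselves than mock libraries, but none overlapped the mock range. B2m rose from 135 ± 13.0 to 218 ± 45.5 cpm (SD, n = 3 each), or by 0.69 ± 0.13 on the log2 scale (SE, edgeR adjusted p = 0.00181). Per kilobase, B2m over the sum of both heavy chains was 0.835, 0.939 and 1.09 in METTL7A1 and 0.847, 0.963 and 0.936 in mock replicates. These ranges overlapped, and the difference of 0.05 on the log2 scale was within the spread between replicates (exact permutation test, two-sided p = 0.8).

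TAP is a dimer of Tap1 and Tap2, and tapasin, the product of Tapbp, holds it beside the empty class I molecule. Tap1 (chromosome 17, 34187553 to 34197225) was counted 223, 394 and 295 times in METTL7A1 replicates 1 to 3 and 84, 114 and 86 times in mock replicates 1 to 3, that is 12.02, 13.34 and 11.96 cpm against 4.592, 4.704 and 3.462 cpm. Every METTL7A1 library held more than every mock library by a wide margin. Tap1 rose 2.94-fold, or by 1.56 ± 0.14 on the log2 scale (SE, edgeR adjusted p = 1.27e-05). Its size lay close to the threshold of 1.5, and it no longer passed without METTL7A1 replicate 2 or without mock replicate 3, or relative to its chromosome neighbours, that is after the median of the 40 nearest genes was subtracted (1.44). In each of these 3 cases 0 of the 10 genes passed the study thresholds.

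Tap2 (chromosome 17, 34203527 to 34216321) was the more abundant transporter subunit and varied the least of the 10 genes among METTL7A1 libraries, with 47.04, 50.28 and 47.16 cpm in replicates 1 to 3 against 22.09, 21.75 and 18.60 cpm in mock replicates 1 to 3. It rose 2.32-fold, or by 1.21 ± 0.09 on the log2 scale (SE, edgeR adjusted p = 1.75e-06), the smallest adjusted p of the 10 genes. Per kilobase, Tap1 over Tap2 was 0.298, 0.310 and 0.296 in METTL7A1 and 0.243, 0.253 and 0.218 in mock replicates. Tap1 thus stayed the scarcer transcript but rose more, by 0.34 on the log2 scale relative to Tap2, with no overlap between groups (exact permutation test, two-sided p = 0.1).

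Tapbp (chromosome 17, 33919332 to 33929288) had 154.8, 179.4 and 170.9 cpm in METTL7A1 replicates 1 to 3 and 127.9, 131.8 and 104.5 cpm in mock replicates 1 to 3. The groups did not overlap, but relative to the level of the gene their gap was smaller than those of Tap1 and Tap2. Its change of 0.47 ± 0.10 on the log2 scale (SE, edgeR adjusted p = 0.00238) was the smallest of the 9 rises. Relative to the 40 nearest genes on the chromosome it was 0.26 and no longer passed (edgeR adjusted p = 0.0635).

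**Figure D2:**
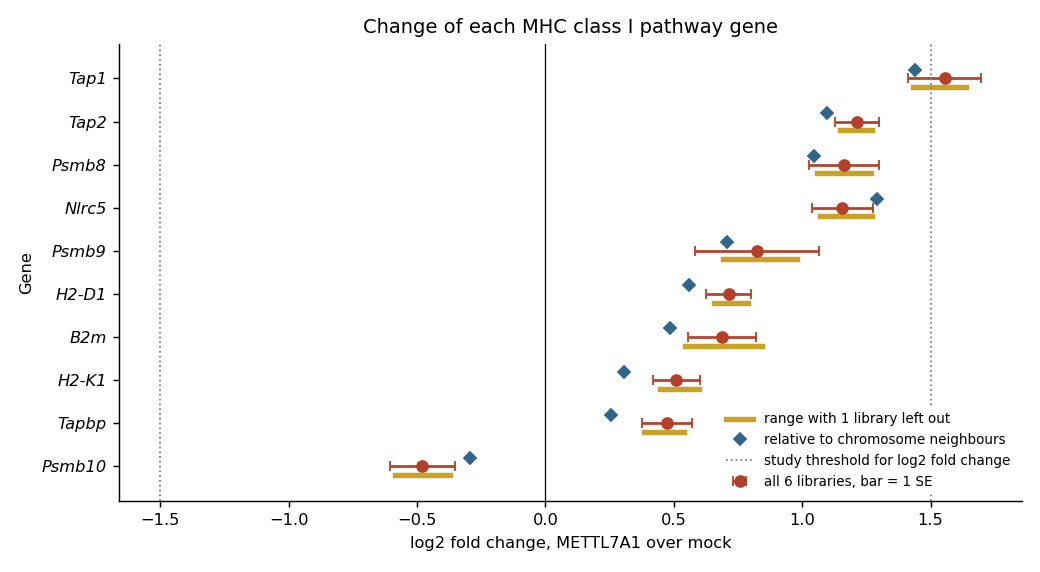
Log2 fold change of METTL7A1 over mock for each gene (red, bars 1 SE, edgeR, 3 libraries per group), its range when 1 library is left out (gold) and its value relative to the 40 nearest genes on the chromosome (blue). Dotted lines mark the fold change threshold of the study, 1.5 in either direction, which only Tap1 exceeds with all 6 libraries.

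The 3 inducible catalytic subunits did not move together. Psmb8 (chromosome 17, 34197790 to 34201454), which replaces Psmb5 and carries the chymotrypsin-like activity, had 15.30, 18.62 and 19.46 cpm in METTL7A1 replicates 1 to 3 and 8.145, 9.078 and 6.722 cpm in mock replicates 1 to 3. Every METTL7A1 library exceeded the highest mock library. Psmb8 rose 2.24-fold (log2 fold change 1.16, SE 0.14, edgeR adjusted p = 6.40e-05).

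Psmb9 (chromosome 17, 34181988 to 34187764), which replaces Psmb6, was the scarcest of the 10 genes, with 33, 68 and 63 reads in METTL7A1 replicates 1 to 3 and 28, 31 and 25 in mock replicates 1 to 3. In cpm these were 1.778, 2.302 and 2.555 against 1.531, 1.279 and 1.006, so that METTL7A1 replicate 1 and mock replicate 1 lay close together. Its rise of 0.82 ± 0.24 on the log2 scale had the largest SE of the 10 genes (edgeR adjusted p = 0.0179). The call was lost without METTL7A1 replicate 2 (0.79, edgeR adjusted p = 0.0735) or without METTL7A1 replicate 3 (0.72, edgeR adjusted p = 0.0702). Psmb9 and Tap1 are transcribed in opposite directions, and 212 bases of their exons overlap, 15.7% of those of Psmb9.

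Psmb10 (chromosome 8, 105935739 to 105938444), which replaces Psmb7, went the other way, with 9.538, 10.66 and 10.66 cpm in METTL7A1 replicates 1 to 3 and 16.29, 14.98 and 12.04 cpm in mock replicates 1 to 3. Every METTL7A1 library lay below the lowest mock library, mock replicate 3. Psmb10 fell by 0.48 on the log2 scale (SE 0.13, edgeR adjusted p = 0.0103). The call was lost without mock replicate 1 (-0.37, edgeR adjusted p = 0.0597) and relative to the chromosome neighbours (-0.29, edgeR adjusted p = 0.102).

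The constitutive counterparts did not rise. Psmb5 fell by 0.60 on the log2 scale (SE 0.10, edgeR adjusted p = 0.000773) and Psmb6 by 0.51 (SE 0.10, edgeR adjusted p = 0.00261), while Psmb7 had a log2 fold change of -0.17 (edgeR adjusted p = 0.14). Within a library, counts per kilobase of Psmb8 over Psmb5 were 0.4605, 0.4905 and 0.5046 in METTL7A1 and 0.1336, 0.1597 and 0.1378 in mock replicates. All METTL7A1 ratios were far above all mock ratios, by 1.76 on the log2 scale (exact permutation test, two-sided p = 0.1). The ratio of Psmb9 over Psmb6 was 0.0202, 0.0224 and 0.0244 against 0.0108, 0.00817 and 0.00854, a difference of 1.29 on the log2 scale with no overlap between groups (exact permutation test, two-sided p = 0.1). The ratio of Psmb10 over Psmb7 was 0.107, 0.109 and 0.101 against 0.154, 0.122 and 0.118, lower in every METTL7A1 library by a log2 difference of -0.31 (exact permutation test, two-sided p = 0.1). In every library and for each pair the constitutive transcript was the more abundant per kilobase. The exons of Psmb7 overlap those of Nek6 on the opposite strand over 34.9% of their length.

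**Figure D3:**
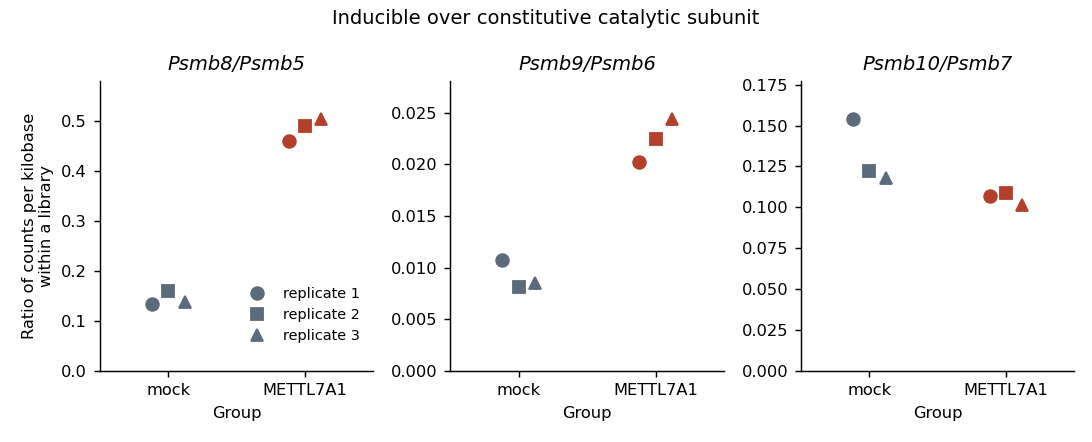
Ratio of counts per kilobase of each inducible proteasome subunit over its constitutive counterpart within each library, 1 symbol per replicate, axes from 0. The METTL7A1 group lies above mock for Psmb8/Psmb5 and Psmb9/Psmb6 and below it for Psmb10/Psmb7.

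Nlrc5 (chromosome 8, 94434391 to 94527272), the transactivator, had 24.79, 23.33 and 20.03 cpm in METTL7A1 replicates 1 to 3 and 9.949, 8.996 and 11.55 cpm in mock replicates 1 to 3. The lowest METTL7A1 library, replicate 3, was still well above the highest mock library, which was also replicate 3. Nlrc5 rose 2.23-fold, from 10.2 ± 1.29 to 22.7 ± 2.44 cpm (SD, n = 3 each), or by 1.16 ± 0.12 on the log2 scale (SE, edgeR adjusted p = 2.82e-05). Nlrc5 and Psmb10 lie 11.4 Mb apart on the same chromosome and moved in opposite directions. The 40 genes nearest to Nlrc5 had a median log2 fold change of -0.14, and relative to them its change was 1.29.

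Of the 8 genes for the other factors of the class I promoter complex, 1 rose and 2 fell, a share below the 42.1% of all tested genes. Nfyb rose (log2 fold change 0.67, SE 0.09, edgeR adjusted p = 0.000128), and the other NF-Y subunits Nfya and Nfyc fell, with log2 fold changes of -0.27 and -0.33 (edgeR adjusted p = 0.0107 and 0.00868). Relative to its chromosome neighbours the value of Nfyb was 0.25 (edgeR adjusted p = 0.0426). Both falls were lost without METTL7A1 replicate 2, where 1 gene of the list passed. Rfx5, the RFX subunit that binds DNA, had a log2 fold change of 0.21 (edgeR adjusted p = 0.0718) and passed relative to its neighbours and without METTL7A1 replicate 3 or mock replicate 3. The median of the list was 0.06.

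Other class I heavy chains went with H2-K1 and H2-D1. Of 15 listed genes 13 were tested, 11 rose and none fell, against 21.1% higher and 21.0% lower among all tested genes, with a median log2 fold change of 0.67. Many of their 31-base stretches also occur in other genes, among them 50.3% of those of H2-Q6, 39.1% of H2-Q7 and 38.4% of H2-Q4, so that the division of reads is uncertain here too. Among those of the Q region, the value of H2-Q7 was the highest (1.28, SE 0.21, edgeR adjusted p = 0.000651). H2-Q4, the most abundant of the list, had 65.1 ± 3.24 cpm in METTL7A1 and 42.5 ± 1.92 cpm in mock cells (SD, n = 3 each) and rose by 0.61 on the log2 scale. H2-Q1, H2-Q2 and H2-Q6 rose by 0.65, 0.69 and 0.63, the first of them with overlapping groups and lost with any 1 library left out except METTL7A1 replicate 1, while H2-Q10 had a value of 0.58 (edgeR adjusted p = 0.107).

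In the T region H2-T23, which encodes Qa-1, the ligand of the NKG2A receptor of natural killer cells, rose from 7.18 ± 1.09 to 19.9 ± 1.04 cpm (SD, n = 3 each), or by 1.47 ± 0.12 on the log2 scale (SE, edgeR adjusted p = 5.93e-06). H2-T24 had 44, 84 and 48 counts in METTL7A1 and 10, 20 and 19 in mock replicates, or 1.72 ± 0.26 higher on the log2 scale (SE, edgeR adjusted p = 0.000369). H2-T10 and H2-T22 rose by 0.67 and 0.77, but 47.6% and 47.2% of their 31-base stretches are shared with each other. H2-M3, which presents formylated peptides, rose by 0.42 (edgeR adjusted p = 0.00829), a call lost relative to its chromosome neighbours.

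The largest rise of the list was that of Mr1, which lies outside the MHC and presents vitamin B metabolites to MAIT cells. METTL7A1 replicates 1 to 3 held 107, 269 and 181 counts against 27, 54 and 39 in mock replicates 1 to 3, with no overlap in cpm. It rose by 2.07 ± 0.22 on the log2 scale (SE, edgeR adjusted p = 3.54e-05). Cd1d1, which presents lipids, had a log2 fold change of 0.34 (edgeR adjusted p = 0.266).

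**Figure D4:**
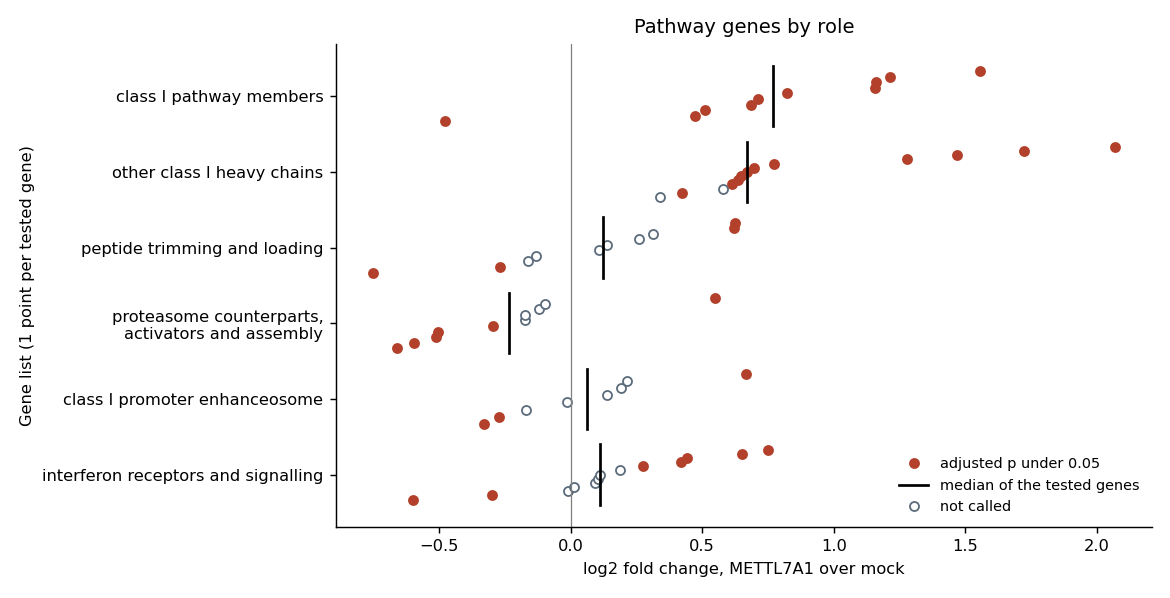
Log2 fold change of METTL7A1 over mock for every tested gene of each list, 1 point per gene, filled red where the edgeR adjusted p was under 0.05 and open otherwise, with a bar at the median of the list. The class I pathway genes and the other class I heavy chains lie mostly to the right of 0, with medians of 0.77 and 0.67, and the proteasome list mostly to the left, with a median of -0.24.

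Of 10 peptide trimming and loading genes 2 rose and 2 fell, about the share of all tested genes (21.1% higher and 21.0% lower), with a median of 0.12. Pdia3, the thiol oxidoreductase of the loading complex, rose (0.62, SE 0.10, edgeR adjusted p = 0.000417), and so did Lnpep, a trimming enzyme of endosomes (0.62, edgeR adjusted p = 0.000107, and 0.36 relative to its neighbours). The chaperones calreticulin and calnexin were abundant, and their genes Calr and Canx had log2 fold changes of 0.26 and 0.14 (edgeR adjusted p = 0.0828 and 0.327), the former passing with DESeq2, with upper quartile scaling, with no abundance filter, relative to its neighbours and without METTL7A1 replicate 1. Tapbpl, the gene of the tapasin relative TAPBPR, had a value of 0.31 (edgeR adjusted p = 0.0971) and passed relative to its neighbours and without METTL7A1 replicate 1.

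Erap1, which trims peptides to the length that class I molecules hold, fell while the transporter rose. METTL7A1 replicates 1 to 3 held 641, 1088 and 873 counts against 1101, 1513 and 1425 in mock replicates 1 to 3, that is 35.6 ± 1.16 against 60.0 ± 2.54 cpm (SD, n = 3 each). The groups did not overlap, and Erap1 fell by 0.75 on the log2 scale (SE 0.07, edgeR adjusted p = 1.33e-05). Its 40 nearest genes had a median of -0.51, and relative to them its value was -0.25 (edgeR adjusted p = 0.0199). Blmh, a cytosolic peptidase, fell by 0.27 (edgeR adjusted p = 0.019), a call that was lost relative to its neighbours and without METTL7A1 replicate 2, mock replicate 1 or mock replicate 2.

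Of 10 genes for proteasome counterparts, activators and assembly factors, 1 rose and 5 fell, against 21.1% higher and 21.0% lower among all tested genes, with a median of -0.24. Beside Psmb5 and Psmb6, the fall included Pomp, which assembles new proteasomes (-0.66, SE 0.08, edgeR adjusted p = 0.000111), and Psme3 (-0.51, SE 0.07, edgeR adjusted p = 0.000215). Relative to their chromosome neighbours the values of Pomp, Psmb5 and Psmb6 were smaller but still called, -0.27, -0.29 and -0.32 (edgeR adjusted p = 0.0276, 0.0492 and 0.035). The genes of the PA28 activator, which interferon usually raises with the inducible subunits, had log2 fold changes of -0.30 (Psme1, edgeR adjusted p = 0.00599) and -0.18 (Psme2, edgeR adjusted p = 0.105). Relative to its chromosome neighbours the value of Psme1 was no longer called. The 1 rise was that of Psmg2, a chaperone of assembly (0.55, edgeR adjusted p = 0.00163), which was not called relative to its neighbours either.

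Genes upstream in the interferon response were examined because interferons raise class I. Of 6 interferon genes Ifng, Ifnb1, Ifna4 and Ifnl2 had 0 counts in every library, which allows at most 0.102 to 0.164 cpm depending on the library (3 counts, counting error only), and the others at most 1 count. Of 13 genes of interferon receptors and signalling 5 rose and 2 fell, with a median of 0.11. Among all tested genes 21.1% were higher and 21.0% lower, 42.1% in either direction. The rises were those of Stat2 (0.75, edgeR adjusted p = 0.00016), the receptor chains Ifnar2 (0.65, edgeR adjusted p = 0.000175) and Ifnar1 (0.42, edgeR adjusted p = 0.000944), the kinase Tyk2 (0.44, edgeR adjusted p = 0.00359) and the transcription factor Irf1 (0.27, edgeR adjusted p = 0.00545). Relative to their chromosome neighbours Stat2, Ifnar2, Ifnar1 and Irf1 had smaller values, 0.32, 0.46, 0.23 and 0.23 (edgeR adjusted p = 0.0327, 0.00225, 0.0335 and 0.0196). The value of Tyk2 was larger there, 0.63 (edgeR adjusted p = 0.000535). Irf9, named here after its value was seen, went from 0.09 (edgeR adjusted p = 0.58) to 0.39 relative to its neighbours (edgeR adjusted p = 0.0286).

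The interferon gamma receptor chains had log2 fold changes of -0.30 (Ifngr1, edgeR adjusted p = 0.0165) and 0.01 (Ifngr2, edgeR adjusted p = 0.94). The call of Ifngr1 was lost, and its value became 0.10, relative to its neighbours, and it was also lost without mock replicate 1 or mock replicate 2. Socs1, an inhibitor of the pathway named here after its value was seen, was the other gene that fell (-0.60, edgeR adjusted p = 0.0264). The call of Socs1 was lost without METTL7A1 replicate 2 or 3 or without mock replicate 1 or 2. Relative to its chromosome neighbours its value was larger, -0.85 (edgeR adjusted p = 0.00633).

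In each group the levels of the 10 genes, in cpm per kilobase of exon, spanned a wide range. In METTL7A1 cells the order was B2m (253 ± 52.9), H2-D1 (143 ± 11.4), H2-K1 (121 ± 11.5), Tapbp (58.2 ± 4.33), Tap2 (14.0 ± 0.533), Psmb8 (10.9 ± 1.35), Psmb10 (7.85 ± 0.496), Tap1 (4.21 ± 0.264), Nlrc5 (2.80 ± 0.300) and Psmb9 (1.64 ± 0.293; SD, n = 3 each), and no neighbours in this order overlapped over libraries. In mock cells B2m was again the highest (157 ± 15.1), but H2-D1 (87.3 ± 7.03) and H2-K1 (84.9 ± 7.45) overlapped. Psmb10 (11.01 ± 1.66) stood above Tap2 (6.05 ± 0.559) and Psmb8 (4.90 ± 0.729) there, the latter 2 with overlapping ranges, and Tap1 (1.44 ± 0.233), Nlrc5 (1.25 ± 0.159) and Psmb9 (0.942 ± 0.194) each overlapped the next. The level of Tap1 moved from above 15.4% of all tested genes in mock to above 33.4% in METTL7A1 cells, that of Tap2 from 43.0% to 66.3%, and that of Psmb10 from 59.8% to 49.5%. The heavy chains and B2m were above at least 95.6% of tested genes in either group.

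Of the 10 genes 7 lie on chromosome 17, and the other genes of that region were also higher on average. Between 32919332 and 36267499, that is 1 Mb beyond the outermost of the 7, the 108 other tested genes had a median log2 fold change of 0.22 (quartiles 0.06 and 0.49). The median over all 628 tested genes of the chromosome was 0.13. Of the 108 genes 40 rose and 6 fell, so that the share called, 42.6%, was close to the 42.1% of all tested genes and differed from it in direction. The 108 genes still held class I genes and pseudogenes outside the lists, such as H2-K2 (0.77) and H2-Q5 (0.82), named here after their values were seen. Against the mock mean of each gene, the median of the 108 genes on the log2 scale was 0.214, 0.211 and 0.223 in METTL7A1 replicates 1 to 3 and 0.0703, 0.0173 and -0.0755 in mock replicates 1 to 3, so that the groups did not overlap here either. Tap1 exceeded 97.2% of these neighbours, Tap2 and Psmb8 95.4%, Psmb9 90.7% and H2-D1 85.2%, whereas H2-K1 exceeded 75.9% and Tapbp 74.1%. With the median of the 40 nearest genes subtracted, 8 of the 10 genes stayed called, all but Tapbp and Psmb10, with log2 fold changes of 1.10 for Tap2, 1.05 for Psmb8, 0.71 for Psmb9, 0.56 for H2-D1, 0.49 for B2m and 0.31 for H2-K1.

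**Figure D5:**
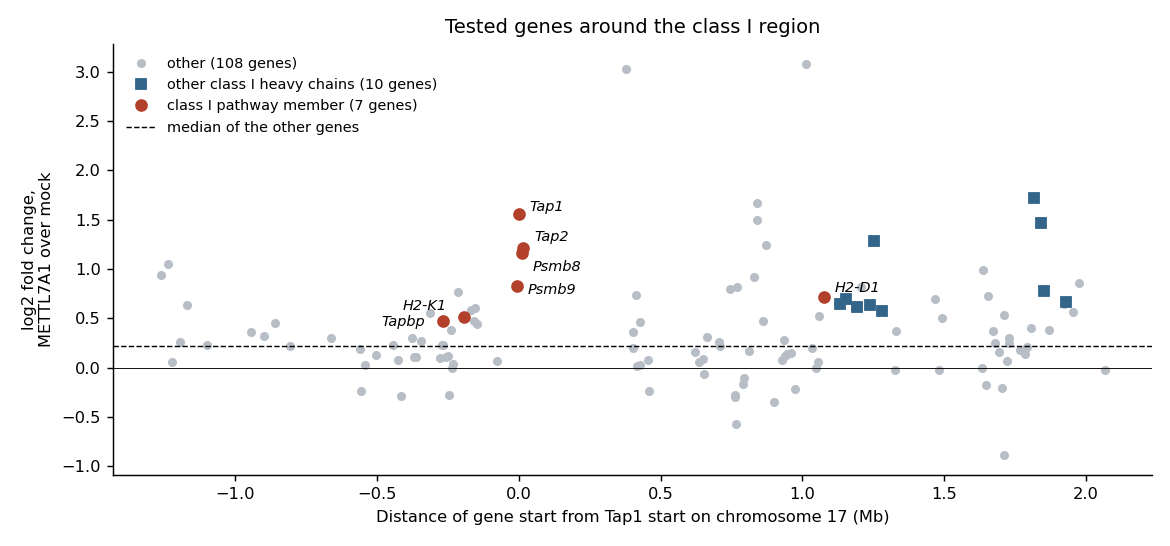
Log2 fold change of METTL7A1 over mock for each tested gene of the chromosome 17 region against its distance from the start of Tap1 in Mb. The 7 class I pathway genes (red) and 10 other class I heavy chains (blue) stand among 108 other genes (grey), whose median of 0.22 is the dashed line.

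The genes most like the pathway as a whole were sought among the 10432 genes whose mean was 100 counts or more, by the root mean square distance of their log2 cpm, centred over the 6 libraries, from the average profile of the 10 genes. Among the closest were Grn (0.0244), Sqstm1 (0.0309), Rdh10 (0.0376) and Fgfr2 (0.0397). Of the 10 genes themselves H2-D1 was nearest to their average (0.0336), and Psmb10 (0.626) and Tap1 (0.394) were the farthest. With 2 groups this distance mostly measures how alike the difference between groups was.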

How the data were processed

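RNA of 3 METTL7A1 and 3 mock 4T1 libraries (stranded total RNA, ribosomal RNA removed, Illumina NovaSeq) was trimmed, aligned to mm10 with STAR 2.5.3a and counted per gene with featureCounts by the authors, who deposited raw counts without normalization together with the exon length of each gene in bases. Reads mapping to several places and the strand setting of the counting are not described in the sources used here. AY036118, whose span lies within Gm42418 on the opposite strand, had 92294 to 2665015 counts, which counting without strand would have left ambiguous. Groups and replicate numbers came from the sample titles.

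Genes with at least 1 cpm in at least 3 libraries were kept, the filter of the study (13166 genes), which held at least 99.76% of counts. Counts were tested with edgeR 4.0.16 in R 4.3.3 (TMM scaling, glmQLFit and glmQLFTest, no covariate), and p-values were adjusted over all tested genes by the Benjamini-Hochberg method. The SE was the size of the log2 fold change divided by the square root of F. The base of the fold change threshold of the study is not stated and was taken as 2. Ratios within a library used counts plus 0.5 divided by exon length and an exact permutation test. Exon overlaps between genes were computed from the exon positions deposited with the counts. Shared 31-base stretches and the overlap of the printed modules with exons were computed from GENCODE M21, the same build. Tests were checked on simulated data in which 195 of 12982 genes were changed. There 18 of 194 calls were false, a share above that set by the adjusted p. Far fewer genes were changed there than were called in these data, so that share need not hold for them. Alternatives were RLE and upper quartile scaling, other filters, removal of the 20 most abundant genes, a replicate block, omission of each library, DESeq2 1.42.0, limma 3.58.1 with voom, and the offset for the 40 nearest genes with an average log2 cpm over 2.

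The genes and lists were chosen with earlier results of these data known. Named were all 10 genes, a set of fixed genes of each list, all other tested class I heavy chains, at most 4 further called genes of each list by smallest p, and the 5 genes of most similar profile; a few genes that this rule names are not reported here.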

Additional observations from a re-analysis of the deposited data

How the results depend on the processing

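Of 152 values of the 10 log2 fold changes over 16 alternatives, 147 kept direction and side of the threshold and none reversed. The 5 exceptions all lost the call: Tapbp (0.26) and Psmb10 (-0.29) relative to chromosome neighbours, Psmb9 without METTL7A1 replicate 2 or 3 (0.72 to 0.79, in a range of 0.69 to 0.98 with 1 library left out) and Psmb10 without mock replicate 1 (-0.37, in a range of -0.59 to -0.37). Between 9 and 10 of the genes were called with 1 library left out, and between 0 and 1 passed the study thresholds, 0 also relative to neighbours. There, by construction, the chromosome 17 median was 0.024. The difference in the B2m to heavy chain ratio, which 3 against 3 libraries could not bring past the threshold, changed sign without METTL7A1 replicate 3 (-0.046) or mock replicate 1 (-0.0019), in a range of -0.046 to 0.14. Of 90 list counts, the list with no tested gene left out, 86 stayed within 1.5 times. Called genes of the whole table ranged from 3761 (without METTL7A1 replicate 2) to 5753 with 1 library left out and were 5988 with no abundance filter, and those past the study thresholds were 326, 205 with at least 10 counts in every library and 710 with no abundance filter. Deviations of same-numbered libraries correlated by -0.15, 0.20 and -0.37, without a common sign. From 3 libraries per group it cannot be told whether the numbers pair libraries. With the replicate block 4810 genes were called and all 10 pathway genes remained called (Psmb9 at an edgeR adjusted p of 0.048). Precision at low depth limits Psmb9, with 25 to 68 counts per library.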

Other observations

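The MHC class II pathway, which presents peptides taken up from outside the cell, was mostly at or near 0 counts in these cells. Of 9 listed genes only H2-DMa passed the abundance filter, with a value of -0.33 ± 0.17 on the log2 scale (SE, edgeR adjusted p = 0.146). Cd74, the invariant chain, was counted 23, 27 and 25 times in METTL7A1 replicates 1 to 3 and 11, 5 and 11 times in mock replicates 1 to 3. H2-Ab1, a class II beta chain, had 21, 33 and 20 against 8, 9 and 6 counts. In cpm neither gene overlapped between groups, with METTL7A1 libraries the higher ones, as for 25.9% of all tested genes. That share is over genes that passed the abundance filter, which Cd74 and H2-Ab1 did not, so it is not a share among genes this scarce. The partner chain H2-Aa had at most 1 count in any library, and the class II transactivator Ciita had 2, 11 and 1 against 2, 0 and 1 counts. With no abundance filter 2 genes of the list were called, as were 5988 of the 28601 genes tested in that setting. Removal of the 20 most abundant genes also gave 2 calls in the list, beside 5606 of 13716 genes. Relative to chromosome neighbours only H2-DMa was called, and it was lower (-0.49, edgeR adjusted p = 0.0491). The comparison as reported called 0 genes of the list.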
